A study of Mus musculus with 8 samples.

Results

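The loci described here are 33 of the 208 piRNA loci counted in mouse testis, and are those that carry a chromosome band name and remain once the better known, paired or otherwise singled-out band-named loci are set aside. Of 94 band-named loci (a name such as 8-qC5-8200.1 gives the chromosome, the band and a number), 61 were excluded by their names and 33 remained. Another 114 loci are named for genes. Several of the 61 had been singled out for their response in these same libraries, so the 33 are a remainder and not a random sample of band-named loci. All 33 were present in both tables. The study compared adult Exd2∆ mice, whose Exd2 gene lost the 3′ part of exon 2 with some of the next intron through Cas9 editing of C57BL6 embryos, with Exd2+/+ mice. Exd2 encodes an exonuclease domain-containing protein. The labels do not say whether the Exd2∆ mice were homozygous or from 1 founder. Whole-testis RNA was sequenced from 2 biological replicates per genotype in each of 2 assays, for 8 libraries in all. The assays were gel-cut small RNA, where mature piRNAs are found, and rRNA-depleted long RNA, which holds their precursors. The titles of the libraries do not say whether the same mice gave both. Here the small RNA of a locus is called its piRNA and the long RNA its precursor, although neither count was limited to such molecules.

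PIWI-interacting RNAs (piRNAs) are small RNAs of the germline that guide PIWI proteins to complementary transcripts, above all to those of transposons. In the mouse testis most are made at the pachytene stage of meiosis from long single-stranded precursors that are transcribed from intergenic loci under the transcription factor A-MYB (MYBL1). The precursors are exported and cut on the surface of mitochondria, and the fragments are loaded onto the PIWI proteins MILI and MIWI and trimmed. Some pachytene loci are divergent pairs driven from a shared promoter, while others are transcribed in 1 direction.

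The sequences at the starts of a few loci are shown because MYB proteins drive pachytene precursors and the loci below moved in different directions. RefSeq promoters (GRCm38.p6, from 250 bases before to 50 after a transcript start) lay within 50 bp of the start of 12 of the 33 loci on the same strand. They are printed for 5: 5-qG2-2301.2 and 2-qF1-2536.1, which lost piRNAs in Exd2∆, 10-qC1-117.1, which gained the most on the log2 scale, and 13-qB1-1517.1 and 5-qG2-950.1, which were not called and were added after their values were seen. Capitals mark the letters AACNGC on either strand (GCNGTT on the strand shown), a core that MYB proteins bind. Matches could overlap one another. 6-qC3-2394.2, 11-qE1-252.1, 8-qE1-3748.1, 10-qC1-12816.2 and 8-qC5-8200.1 are among the loci without a matched entry. The windows, in this order, are chr5:143758104-143758403 (plus strand), chr2:127691604-127691903 (plus), chr10:84488043-84488342 (plus), chr13:53393439-53393738 (plus) and chr5:136918896-136919195 (plus).
5-qG2-2301.2: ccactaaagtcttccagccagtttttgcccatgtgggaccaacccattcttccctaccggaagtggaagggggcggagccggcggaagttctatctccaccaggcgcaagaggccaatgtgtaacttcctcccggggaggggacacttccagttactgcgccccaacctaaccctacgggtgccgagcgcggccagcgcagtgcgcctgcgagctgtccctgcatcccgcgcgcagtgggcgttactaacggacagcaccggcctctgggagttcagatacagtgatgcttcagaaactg
2-qF1-2536.1: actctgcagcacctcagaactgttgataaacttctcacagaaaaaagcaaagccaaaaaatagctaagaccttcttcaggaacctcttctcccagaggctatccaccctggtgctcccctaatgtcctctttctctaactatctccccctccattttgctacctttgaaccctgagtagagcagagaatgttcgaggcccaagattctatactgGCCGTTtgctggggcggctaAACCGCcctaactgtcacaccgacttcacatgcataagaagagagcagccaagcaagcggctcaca
10-qC1-117.1: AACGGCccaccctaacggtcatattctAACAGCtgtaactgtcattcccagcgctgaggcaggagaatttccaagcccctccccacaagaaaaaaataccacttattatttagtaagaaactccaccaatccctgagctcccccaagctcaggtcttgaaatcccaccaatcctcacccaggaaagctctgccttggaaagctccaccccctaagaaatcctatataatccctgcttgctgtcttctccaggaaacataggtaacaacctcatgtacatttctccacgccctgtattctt
13-qB1-1517.1: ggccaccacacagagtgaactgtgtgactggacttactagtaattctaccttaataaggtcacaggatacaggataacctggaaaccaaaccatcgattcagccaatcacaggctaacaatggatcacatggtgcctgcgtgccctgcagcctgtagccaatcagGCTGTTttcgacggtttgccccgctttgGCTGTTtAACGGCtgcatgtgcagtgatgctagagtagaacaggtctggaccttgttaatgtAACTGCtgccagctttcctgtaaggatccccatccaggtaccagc
5-qG2-950.1: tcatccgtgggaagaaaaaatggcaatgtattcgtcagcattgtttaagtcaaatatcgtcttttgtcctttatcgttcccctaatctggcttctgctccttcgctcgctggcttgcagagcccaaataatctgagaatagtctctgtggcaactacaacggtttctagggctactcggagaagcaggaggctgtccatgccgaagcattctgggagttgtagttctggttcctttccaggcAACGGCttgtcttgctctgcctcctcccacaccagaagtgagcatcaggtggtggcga

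The letters stood in 9 of the 12 promoters matched to the 33 loci (75%), in 10 of 15 matched to the other band-named loci (66.7%), in 19 of 53 matched to gene-named loci (35.8%) and in 11772 of all 32817 RefSeq promoters (35.9%). No match was present at 5-qG2-2301.2, 7-qB5-6255.1 or 1-qE2.3-2.1, while 13-qB1-1517.1 had 4 and 2-qG3-1029.1 had 5. In small RNA 5-qG2-2301.2 fell in Exd2∆, 7-qB5-6255.1 rose and 1-qE2.3-2.1 was not called. Base composition varied as well. The promoter at 1-qC1.3-637.1 was 75.3% G and C with 42 CpG dinucleotides, and that at 7-qB5-6255.1 was 45.3% with 1. A match describes letters in this window and not a site in use. Only these letters were searched, so a window with no match, such as that of 5-qG2-2301.2, can still hold MYB sites.

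The loci are spread over 13 chromosomes, 18 on the plus strand. Their median length was 18.02 kb, against 27.9 kb for the other band-named loci and 36.1 kb for the gene-named loci, and ranged from 0.123 kb at 1-qE2.3-2.1 to 60.9 kb at 13-qB1-1517.1. The name unpaired held in the coordinates: none of the 33 had a locus starting on the other strand within 1 kb of its own start, against 23 of the 61 other band-named loci. The closest divergent starts were those of 10-qC1-1527.1 and 10-qC1-875.3, 25.5 kb apart. A divergent protein-coding gene did start within 1 kb of 4 of the 33 (1700066M21Rik at 1-qC1.3-637.1, Gstt2 at 10-qC1-12816.2, Cep83 at 10-qC2-545.1 and Cep112 at 11-qE1-252.1), which is 12.1% against 11.1% of all 208 loci. In the GENCODE M21 annotation 12 of the 33 overlap no gene on their strand, 18 overlap a long noncoding RNA or unclassified transcript, and 2 overlap a protein-coding gene. Those 2 are 2-qE5-4.1, whose whole span lies within Stard9, and 6-qD1-2831.2, which contains the linker histone gene H1fx. Pseudogenes lie on either strand of 10 loci, with 7 in 10-qC1-1527.1 and 6 in 10-qC1-875.3. Reads from such repeated sequence could have been split among copies, which makes these counts less certain. In long RNA the deposited counts were whole numbers in all 4 libraries (within 0.001) at 3 of the 33 loci, 1-qD-4525.1, 1-qE2.3-2.1 and 8-qC5-8200.1.

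The small RNA libraries held 28408830 to 37660202 estimated counts over the 208 loci and the long RNA libraries 960909 to 1842625. The smallest library was long RNA Exd2∆ replicate 1. Across the 208 loci (log2 CPM, long RNA) it correlated with the Exd2+/+ libraries at r = 0.965 and 0.963, Exd2∆ replicate 2 did so at 0.984 and 0.985, and replicates correlated at 0.986 in Exd2∆ and 0.997 in Exd2+/+. All CPM (counts scaled by TMM to a common library size) are relative to these 208 loci. Exd2 itself and 15 listed marker genes of testis cell types lie outside the loci and were not analysed here, so the genotype labels could not be checked. In whole testis, fewer cells that make a piRNA and less of it per cell cannot be told apart. At the least covered member, 1-qE2.3-2.1, the lowest library had 93 small RNA counts (counting error 10.4%) and 14 long RNA counts (26.7%). Beyond 1-qE2.3-2.1 and 2-qE5-4.1 the lowest small RNA count was 6454 (1.24%). Such errors cover counting only.

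In Exd2+/+ testis the 33 loci together took 15.8% ± 0.174 of the small RNA counts and 16.3% ± 0.153 of the long RNA counts (SD, n = 2 each). Per kb of genomic span, introns included, the median locus stood at 198 small RNA CPM and 236 long RNA CPM. The other band-named loci had medians of 361 and 318 CPM per kb, and the gene-named loci 1.55 and 43.9. The ratio of a locus's small RNA CPM to its long RNA CPM, here called yield, is 1 where a locus takes the same share of both assays. Its median was 0.935 over the 33 loci, 0.807 over the other band-named loci and 0.0250 over the gene-named loci.

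A few members had the highest yields. 1-qD-4525.1 (chromosome 1, 92992344 to 92997067, minus strand, in no annotated gene) measured 7253 and 6982 CPM in Exd2+/+ and 7557 and 7860.0 CPM in Exd2∆ in small RNA, a yield of 3.67 in Exd2+/+. 8-qC5-8200.1 (chromosome 8, 92189459 to 92194416, plus strand, also outside annotated genes) had a yield of 3.11. With 3093 small RNA CPM per kb in Exd2+/+ it was the densest piRNA source of all 208 loci, in a span of only 5.0 kb. 11-qE1-3997.2, opposite to the protein kinase gene Prkca and with the miRNA gene Mir7223 on its own strand, had a yield of 2.81.

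At the other end stood 2-qE5-4.1 (chromosome 2, 120692588 to 120715137, plus strand), inside the kinesin gene Stard9. Its precursor was abundant, at 4932 and 5724 CPM in Exd2+/+ and 5216 and 5864 CPM in Exd2∆, yet its small RNA was 4.53 and 4.22 CPM in Exd2+/+ and 5.81 and 4.84 CPM in Exd2∆. That yield of 8.22e-04 was the lowest of all 208 loci. 55.6% of its span is covered by exons of Stard9, and its long RNA can hold mRNA. 10-qC1-117.1 (yield 0.0771) and 13-qB1-1517.1 (yield 0.216) followed. 13-qB1-1517.1, over the lincRNA gene Gm2762, was the most abundant precursor of the 33, with 15061 and 15794 CPM in Exd2+/+ and 15699 and 16181 CPM in Exd2∆, and its small RNA measured 3462 and 3198 CPM in Exd2+/+ and 3204 and 3252 CPM in Exd2∆.

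1-qE2.3-2.1 was the scarcest of all 208 loci in both assays, with 3.24 and 3.46 CPM in Exd2+/+ and 3.45 and 3.97 CPM in Exd2∆ in small RNA. It is 123 bp long and lies with 122 bp on an annotated small nuclear RNA gene, Gm22710 (GRCm38 chr1:118459141-118459265, minus strand), on the same strand. Reads counted there can include fragments of that RNA, whose GENCODE sequence is printed because it is nearly the whole of the locus.
Gm22710: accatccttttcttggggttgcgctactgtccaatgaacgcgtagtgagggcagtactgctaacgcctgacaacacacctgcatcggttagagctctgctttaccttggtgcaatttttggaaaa

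**Figure D1:**
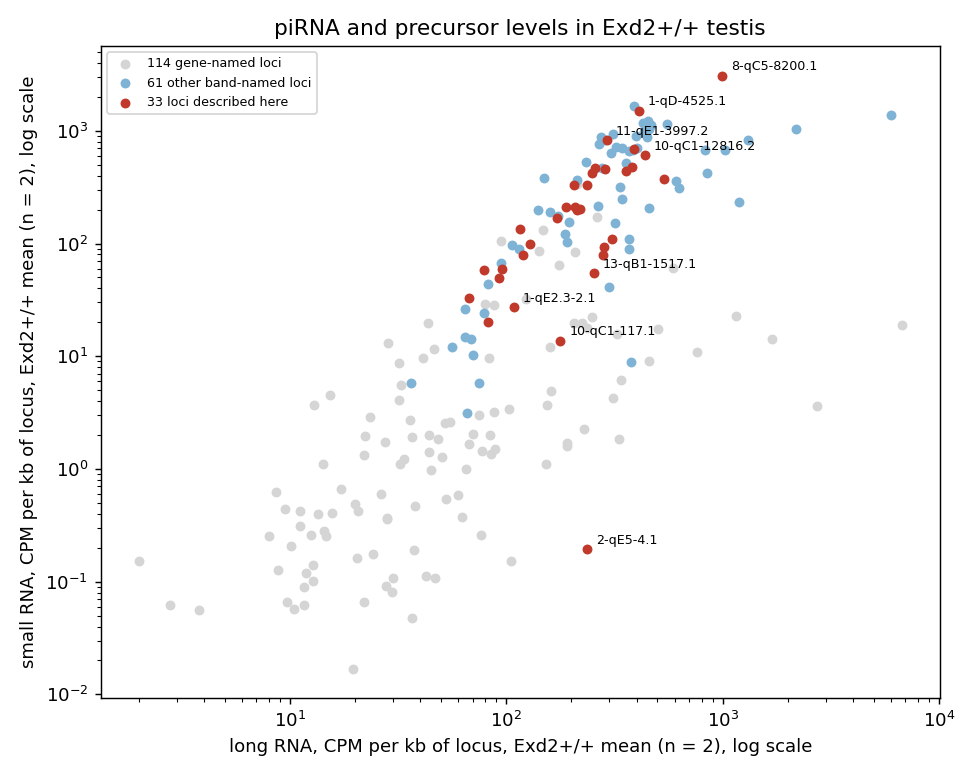
Small RNA against long RNA in Exd2+/+ testis for all 208 loci, each as CPM per kb of locus (mean of 2 libraries, log axes), with the 33 loci in red, the other band-named loci in blue and the gene-named loci in grey. Most of the 33 lie in the cloud of band-named loci, 8-qC5-8200.1 is the highest point in small RNA at 3093 CPM per kb, and 2-qE5-4.1 lies far below at 0.194.

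The question asked of each locus was whether its piRNAs differed between Exd2∆ and Exd2+/+. With edgeR's quasi-likelihood test, p adjusted over all 208 loci by Benjamini-Hochberg and a threshold of 0.05, 14 of the 33 were higher in Exd2∆ (background over all loci 33.2%), 9 were lower (background 31.7%) and 10 were not called. That is 23 called of 33, near the 64.9% called over all loci. The log2 fold changes of the 33 ran from -1.03 to 0.52 with a median of 0.13, against a median of 0.04 over all loci. Changes were mostly small: 6 of the 23 called loci exceeded 0.5 on the log2 scale in absolute value, against 72 of the 135 called loci overall. This contrast depends in part on how the members were chosen. Of the 72, 45 were gene-named loci, whose median small RNA level in Exd2+/+ was 46.1 CPM against 3461 CPM for the members. The falls were larger than the rises, with medians of -0.59 and 0.26, as they were over all loci (-0.65 and 0.45). Both Exd2∆ libraries lay on 1 side of both Exd2+/+ libraries at 28 of the 33 loci (background 79.3%), above them at 19 (background 39.9%) and below at 9 (background 39.4%). The authors' deposited table called the same loci in the same directions.

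5-qG2-2301.2 fell the most. The locus (chromosome 5, 143758378 to 143768596, plus strand) coincides with the lincRNA gene D130017N08Rik. Its small RNA measured 3306 and 3521 CPM in Exd2+/+ and 1654 and 1695 CPM in Exd2∆, and the groups stand far apart relative to their spread. The log2 fold change was -1.03 ± 0.06 (SE; adjusted p = 5.29e-07, edgeR quasi-likelihood), a 2.04-fold fall. 2-qF1-2536.1 (chromosome 2, 127691853 to 127703711, plus strand), over the antisense transcript gene Gm14244, measured 4546 and 4375 CPM in Exd2+/+ and 2589 and 2925 CPM in Exd2∆ with a log2 fold change of -0.69 ± 0.07 (adjusted p = 1.66e-05, edgeR quasi-likelihood). Here too both Exd2∆ libraries were below both Exd2+/+ libraries.

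The 3 loci of band 6-qC3 all fell, although none of them neighbours another closely. 6-qC3-2394.2 (chromosome 6, 85985214 to 86003606, minus strand), which overlaps a gene only on the other strand, measured 4033 and 3654 CPM in Exd2+/+ and 1898 and 2014 CPM in Exd2∆, and fell by 0.97 ± 0.06 on the log2 scale (adjusted p = 1.61e-06, edgeR quasi-likelihood). 6-qC3-100.5 (chromosome 6, 83575940 to 83590341, plus strand), along the antisense gene Gm21284, measured 1185 and 1106 CPM in Exd2+/+ and 699 and 763 CPM in Exd2∆ and fell by 0.65 ± 0.07. The richest of them, 6-qC3-6258.3 (chromosome 6, 81893817 to 81911839, minus strand), holds the lincRNA gene 1700009C05Rik and the miRNA genes Mir468 and Mir7232 on its strand, so its small RNA can include these miRNAs. It measured 12635 and 12423 CPM in Exd2+/+ and 8283 and 8402 CPM in Exd2∆, a fall of 0.59 ± 0.05 (adjusted p = 8.13e-06, edgeR quasi-likelihood). The next locus along the chromosome, 6-qD1-2831.2 with H1fx inside it, rose instead (3544 and 3462 CPM in Exd2+/+ and 4280.1 and 4404 CPM in Exd2∆, log2 fold change 0.31 ± 0.05).

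The other falls were small and at abundant loci. 10-qB5.1-5404.2 stood at 8859 and 8637 CPM in Exd2+/+ and 6995 and 6941 CPM in Exd2∆ (log2 fold change -0.33 ± 0.05). 8-qC5-8200.1, the dense source described above, measured 15902 and 14771 CPM in Exd2+/+ and 13227 and 12627 CPM in Exd2∆ (-0.25 ± 0.06, adjusted p = 0.00505, edgeR quasi-likelihood). At 11-qE1-3997.2 the values were 4725 and 4655 CPM in Exd2+/+ and 4113 and 3948 CPM in Exd2∆ (-0.22 ± 0.05). 10-qC1-12816.2, the most abundant of the 33 in small RNA, measured 16084 and 16223 CPM in Exd2+/+ and 14542 and 14391 CPM in Exd2∆ and fell by 0.16 ± 0.05 on the log2 scale (adjusted p = 0.0216, edgeR quasi-likelihood). The last call did not hold without Exd2+/+ replicate 1 or 2 (-0.17 and -0.15, adjusted p = 0.179 and 0.224) or with library-total scaling (-0.11, adjusted p = 0.0626, edgeR quasi-likelihood). With Exd2+/+ replicate 1 left out, 8-qC5-8200.1 stood at -0.19 and was not called (adjusted p = 0.1001 by edgeR).

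Among the 14 loci with more piRNA, 10-qC1-117.1 had the largest rise. The locus (chromosome 10, 84488293 to 84504837, plus strand) begins at the lincRNA gene 4930463O16Rik and measured 225 and 229 CPM in Exd2+/+ and 306 and 345 CPM in Exd2∆, a log2 fold change of 0.52 ± 0.10 (adjusted p = 0.00169, edgeR quasi-likelihood) or 1.43-fold. 11-qE1-252.1 (chromosome 11, 108417575 to 108425425, minus strand), head to head with the centrosomal protein gene Cep112, measured 396 and 384 CPM in Exd2+/+ and 529 and 539 CPM in Exd2∆ and rose by 0.45 ± 0.08 on the log2 scale. In each of these loci the lower Exd2∆ library was above the higher Exd2+/+ library. 8-qE1-3748.1, outside annotated genes, measured 6578 and 5968 CPM in Exd2+/+ and 8415 and 7860.0 CPM in Exd2∆ (0.38 ± 0.06).

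Also higher were 1-qC1.3-637.1 (945 and 942 CPM in Exd2+/+ and 1263 and 1155 CPM in Exd2∆; 0.36 ± 0.07) and 10-qC2-545.1 (1187 and 1132 CPM in Exd2+/+ and 1498 and 1454 CPM in Exd2∆; 0.35 ± 0.06), which start next to the protein-coding genes 1700066M21Rik and Cep83. 17-qE1.1-7037.1, one of the 5 most abundant members, measured 11258 and 11969 CPM in Exd2+/+ and 13997 and 14011 CPM in Exd2∆ (0.27 ± 0.05). Rises between 0.23 and 0.26 on the log2 scale were seen at 9-qA1-178.2, 10-qC1-1527.1, 3-qA3-2052.2 and 10-qC1-2617.2. The smallest called rises, at 7-qB5-6255.1 (0.21 ± 0.06), 11-qE1-9443.2 (0.18 ± 0.05, at 13302 and 13384 CPM in Exd2+/+ and 15046 and 15222 CPM in Exd2∆) and 2-qG3-1029.1 (0.17 ± 0.05), were between 1.12- and 1.16-fold. The adjusted p of the 14 was at most 0.0205 (edgeR quasi-likelihood).

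Of these rises, 5 lost their call in at least 1 fit that left out 1 library. With fewer libraries a call can be lost without a change in the estimate, as at 11-qE1-9443.2. Without Exd2+/+ replicate 1, the calls of 9-qA1-178.2 (0.28, adjusted p = 0.167), 11-qE1-9443.2 (0.18, 0.147), 7-qB5-6255.1 (0.18, 0.0809) and 17-qE1.1-7037.1 (0.23, 0.0542) were lost (log2 fold change, then adjusted p, edgeR quasi-likelihood). Without Exd2+/+ replicate 2 those of 9-qA1-178.2 (0.24, adjusted p = 0.252), 11-qE1-9443.2 (0.19, 0.134) and 2-qG3-1029.1 (0.13, 0.256) were lost. Leaving out Exd2∆ replicate 1 ended the calls of 2-qG3-1029.1 (0.16, adjusted p = 0.062) and 7-qB5-6255.1 (0.15, 0.0749), and leaving out Exd2∆ replicate 2 that of 2-qG3-1029.1 (0.17, 0.0558). The call of 9-qA1-178.2 was also lost with RLE scaling, library-total scaling and the default option of the fit (adjusted p = 0.0664, 0.0588 and 0.0517, edgeR quasi-likelihood), and that of 2-qG3-1029.1 with DESeq2 (adjusted p = 0.0825). All 23 called members kept their direction in each fit that left out 1 library.

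**Figure D2:**
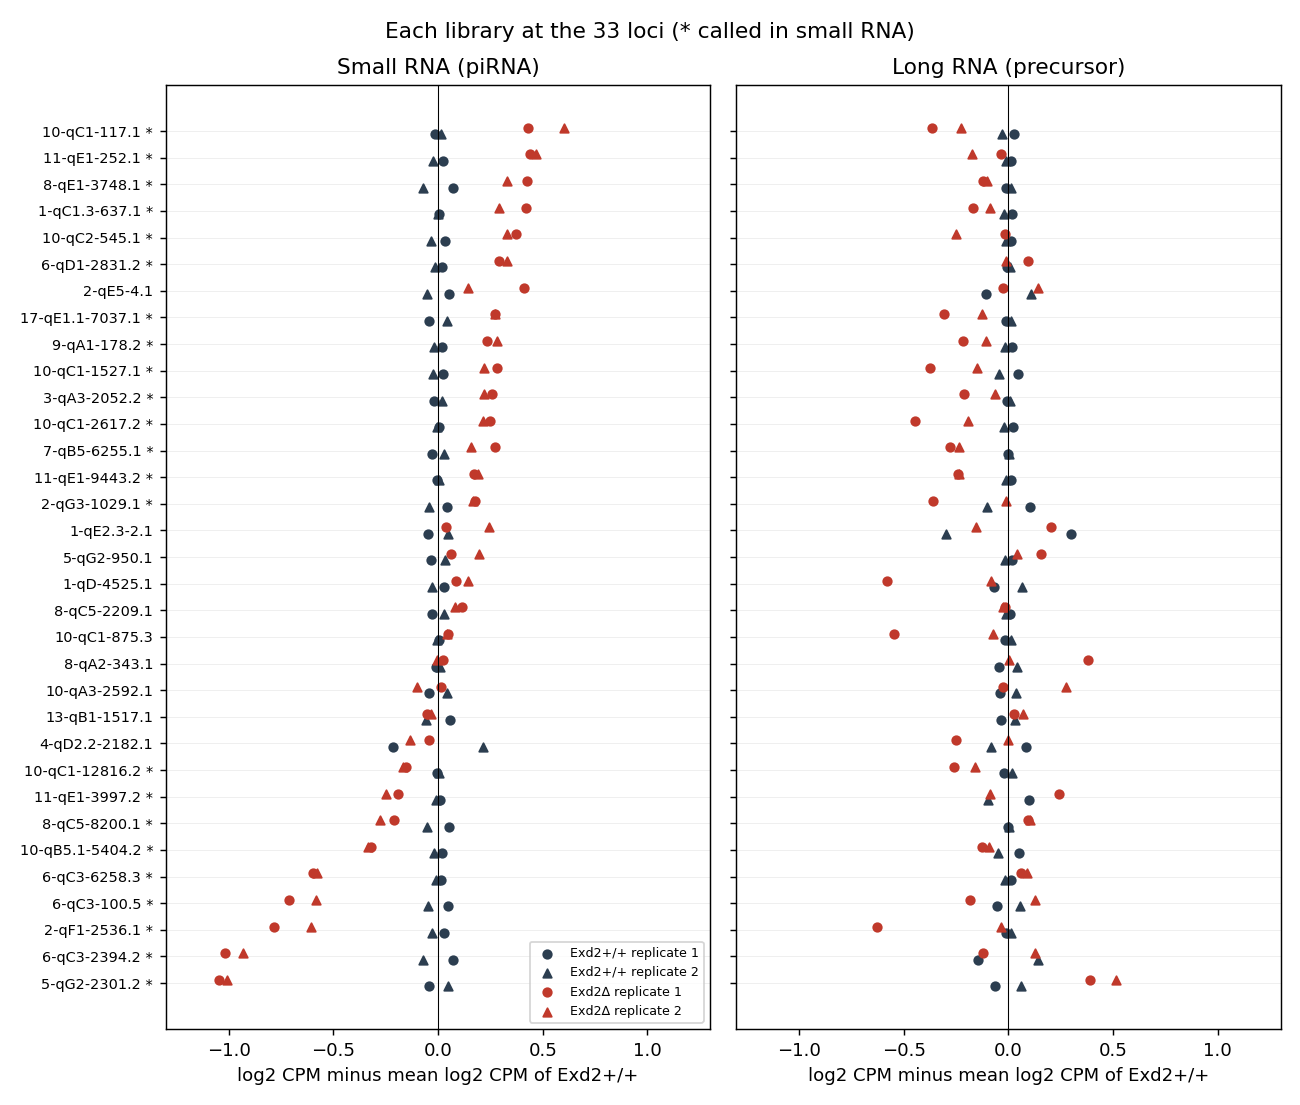
Every library at the 33 loci as log2 CPM minus the mean log2 CPM of Exd2+/+, in small RNA (left) and long RNA (right), ordered by the small RNA log2 fold change, with circles for replicate 1, triangles for replicate 2, dark points for Exd2+/+ and red points for Exd2∆. The red points run from about the level of 5-qG2-2301.2 (-1.03) to that of 10-qC1-117.1 (0.52) in small RNA, while in long RNA the 2 Exd2∆ replicates often lie apart.

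The 10 loci not called ran from -0.10 ± 0.11 at 4-qD2.2-2182.1 to 0.28 ± 0.12 at 2-qE5-4.1. Replicates differed most at 4-qD2.2-2182.1, with 2372 and 3189 CPM in Exd2+/+ and 2669 and 2506 CPM in Exd2∆, so that the Exd2∆ values lie between the Exd2+/+ ones. Without Exd2+/+ replicate 1 it would be called lower (-0.30, adjusted p = 0.00317), and without replicate 2 it stood at 0.13 (adjusted p = 0.266, edgeR quasi-likelihood). 2-qE5-4.1 became a rise without Exd2+/+ replicate 1 (0.33, adjusted p = 0.0405) and so did 1-qD-4525.1 once Exd2∆ replicate 1 was set aside (0.14, adjusted p = 0.0446 by edgeR). The values nearest to 0 were 0.01 ± 0.06 at 8-qA2-343.1 and -0.04 ± 0.06 at 10-qA3-2592.1. 13-qB1-1517.1 stood at -0.04 ± 0.06, 10-qC1-875.3 at 0.05 ± 0.05, 8-qC5-2209.1 at 0.10 ± 0.05, 5-qG2-950.1 at 0.13 ± 0.06 and 1-qE2.3-2.1 at 0.15 ± 0.11.

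The members' summed share of small RNA counts was 16.0% ± 0.674 in the Exd2∆ libraries (SD, n = 2), no further from the Exd2+/+ share given above than those libraries lay from each other (exact permutation test, two-sided p = 1). Of long RNA counts they held 14.8% ± 1.05 in Exd2∆, against 16.3% in Exd2+/+ (exact permutation test, two-sided p = 0.33, the smallest that 2 against 2 libraries allow).

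Precursor levels were then compared between the genotypes in long RNA. None of the 33 was called by edgeR's quasi-likelihood test, against 7.69% of all 208 loci (6.73% higher, 0.962% lower), but every band-named locus called in long RNA is among the 61 set aside, so this count follows from how the members were chosen. At an unadjusted p under 0.05 there were 6 members, 5 lower and 1 higher. Over all loci there were 61 of 208 (29.3%), 27 of them lower. Among the other band-named loci there were 30 of 61, 19 of them lower. DESeq2 called 1 member, 5-qG2-2301.2, against 34 of the 208 loci. The log2 fold changes ran from -0.31 to 0.45 with a median of -0.11, close to the -0.12 of the other band-named loci and below the 0.07 of the gene-named loci. Values below 0 stood at 22 of the 33 loci, against 43 of the 61 other band-named loci, 31 of the 114 gene-named loci and 46.2% of all loci. The Exd2∆ libraries were both below the Exd2+/+ libraries at 18 loci (background 30.3%) and both above at 4 (background 32.2%), so that 22 did not overlap (background 62.5%). Leaving out 1 Exd2∆ library moved the count over all loci as well: 5 members and 60 of the 208 loci were called without replicate 1, and 15 members and 105 of the 208 without replicate 2. Without either Exd2+/+ replicate no locus was called.

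5-qG2-2301.2 came closest to a call in long RNA. Its precursor measured 2319 and 2531 CPM in Exd2+/+ and 3177 and 3460.0 CPM in Exd2∆, with both Exd2∆ libraries above both Exd2+/+ libraries, and a log2 fold change of 0.45 ± 0.10 (adjusted p = 0.0534, edgeR quasi-likelihood). DESeq2 gave 0.45 (adjusted p = 0.00145), and the fits without Exd2∆ replicate 1 and 2 gave 0.51 and 0.39 (adjusted p = 1.27e-06 and 1.19e-04), while those without Exd2+/+ replicate 1 and 2 gave 0.39 and 0.52 (adjusted p = 0.614 and 0.388, edgeR quasi-likelihood). The range over all alternatives was 1.27e-06 to 0.614. The other loci with fewer piRNAs showed no shared direction in long RNA. 6-qC3-2394.2 measured 3116 and 3796 CPM in Exd2+/+ and 3159 and 3753 CPM in Exd2∆ (0.0005 ± 0.14), where the groups overlap fully, and 6-qC3-6258.3 measured 7067 and 6933 CPM in Exd2+/+ and 7304 and 7457 CPM in Exd2∆ (0.08 ± 0.07).

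The Exd2∆ replicates differed from each other at several precursors. 2-qF1-2536.1 measured 6333 and 6434 CPM in Exd2+/+ and 4127 and 6239 CPM in Exd2∆, so that replicate 1 stood well below the other libraries and replicate 2 near Exd2+/+ (-0.30 ± 0.20). The same held at 10-qC1-875.3 (5076 and 5181 CPM in Exd2+/+ and 3508 and 4873 CPM in Exd2∆) and 1-qD-4525.1 (1850.3 and 2029.5 CPM in Exd2+/+ and 1299 and 1831 CPM in Exd2∆). At 10-qA3-2592.1 it was replicate 2 that differed, with 9629.8 and 10149 CPM in Exd2+/+ and 9702 and 11967 CPM in Exd2∆, and the locus was called only with replicate 1 left out (0.28, adjusted p = 0.00231 by edgeR). By contrast the replicates lay together at 11-qE1-9443.2, with 8450.3 and 8302 CPM in Exd2+/+ and 7098 and 7109 CPM in Exd2∆ (-0.24 ± 0.07, adjusted p = 0.117, edgeR quasi-likelihood), and at 7-qB5-6255.1, with 5434 and 5453 CPM in Exd2+/+ and 4488 and 4620.4 CPM in Exd2∆ (-0.26 ± 0.08, adjusted p = 0.117). At 11-qE1-9443.2 and 7-qB5-6255.1 both Exd2∆ libraries were below both Exd2+/+ libraries. Without Exd2∆ replicate 1 both were called (-0.23 and -0.23, adjusted p = 0.0211 and 0.0371, edgeR quasi-likelihood), as they were without Exd2∆ replicate 2.

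**Figure D3:**
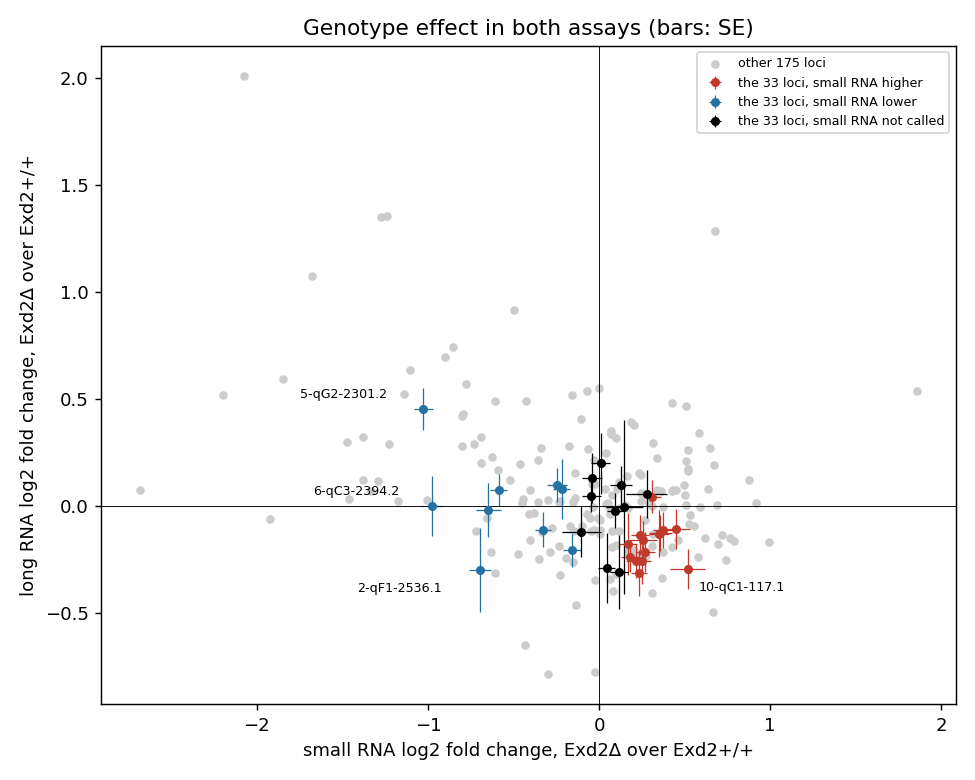
Log2 fold change of Exd2∆ over Exd2+/+ in small RNA (horizontal) against long RNA (vertical) for the 33 loci, coloured by their small RNA call with bars of 1 SE, and for the other 175 loci in grey. The 14 loci higher in small RNA cluster below 0 in long RNA apart from 6-qD1-2831.2 at 0.04 (-0.02 with library-total scaling), and 5-qG2-2301.2 stands at -1.03 in small and 0.45 in long RNA.

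The genotype effect itself differed between piRNA and precursor at 18 of the 33 loci, 13 with the small RNA fold change above the long RNA one (background 25.5%) and 5 with a lower one (background 26.4%), by the interaction of assay and genotype in 1 edgeR quasi-likelihood fit of all 8 libraries (51.9% of all loci called). The members had a median difference, small minus long RNA log2 fold change, of 0.22, against 0.04 over all loci. Among the other band-named loci the median was 0.07, with a range from -4.09 to 1.16. Several of those loci had been singled out for their response. The counts and the median of the members therefore depend in part on how the members were chosen. 5-qG2-2301.2 had the widest gap, -1.48 ± 0.13 (adjusted p = 3.49e-05, edgeR quasi-likelihood), and its yield went from 1.41 in Exd2+/+ to 0.505 in Exd2∆. 6-qC3-2394.2 (-0.98 ± 0.18), 6-qC3-6258.3 (-0.66 ± 0.08), 6-qC3-100.5 (-0.63 ± 0.16) and 8-qC5-8200.1 (-0.35 ± 0.09) were the other 4 with relatively less piRNA. At 2-qF1-2536.1, where both values were negative, the difference of -0.39 ± 0.24 was not called (adjusted p = 0.192), and without the long RNA library of Exd2∆ replicate 1 it was (-0.66, adjusted p = 0.00121, edgeR quasi-likelihood).

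Loci with more piRNA mostly had a long RNA log2 fold change below 0. Of the 14 higher in small RNA, 13 had a long RNA log2 fold change below 0, none of them called (14 with library-total scaling), against 56.5% of all loci that were higher in small RNA. The other band-named loci were alike in this, with 13 of 16 below 0, while 13 of 39 gene-named loci were. Without Exd2∆ replicate 1 in long RNA, 14 of the 14 stood below 0, and without Exd2∆ replicate 2, 13. The difference was called at 13 of the 14, 2-qG3-1029.1 being the exception, against 12 of those 16 other band-named loci and 47 of all 69 loci higher in small RNA. It was largest at 10-qC1-117.1 (0.81 ± 0.13, adjusted p = 0.00122, edgeR quasi-likelihood), whose precursor measured 3004 and 2887 CPM in Exd2+/+ and 2286 and 2514 CPM in Exd2∆, both Exd2∆ libraries below both Exd2+/+ libraries. Next came 11-qE1-252.1 (0.56 ± 0.12), 10-qC1-2617.2 (0.55 ± 0.12), 10-qC1-1527.1 (0.51 ± 0.13) and 8-qE1-3748.1 (0.49 ± 0.11). Across the 33 loci the fold changes of the 2 assays correlated at r = -0.450 and rho = -0.358, and at r = -0.265 without 5-qG2-2301.2. These points share the same libraries and are not replicates. Weaker calls of the difference did not hold in every fit that left out 1 library, and such fits have fewer libraries to measure spread. That of 6-qD1-2831.2 was lost in 7 of the 8 fits that left out 1 library (adjusted p up to 0.139), and that of 3-qA3-2052.2 in 6 of them (up to 0.0913). 10-qC2-545.1 lost its call in 4 (up to 0.0706) and 9-qA1-178.2 in 3 (up to 0.0703). 1-qC1.3-637.1 and 6-qC3-100.5 lost theirs without the long RNA library of Exd2+/+ replicate 1 (adjusted p = 0.0506 and 0.062), and 8-qC5-8200.1 without the small RNA library of the same name (adjusted p = 0.0668, edgeR quasi-likelihood).

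Loci that share a band did not always move together in small RNA. The 5 loci of band 10-qC1 held 3 rises (10-qC1-117.1, 10-qC1-1527.1 and 10-qC1-2617.2), 1 fall (10-qC1-12816.2) and 1 that was not called (10-qC1-875.3). Their long RNA log2 fold changes all lay between -0.31 and -0.21, none called. At 10-qC1-875.3 the long RNA value rested mostly on Exd2∆ replicate 1, as given above. The closest neighbours, 10-qC1-1527.1 and 10-qC1-875.3, start 25.5 kb apart on opposite strands. In small RNA the first measured 5839 and 5664 CPM in Exd2+/+ and 6993 and 6704 CPM in Exd2∆ and the second 3232 and 3203 CPM in Exd2+/+ and 3322 and 3317 CPM in Exd2∆. Band 11-qE1 held 2 rises (11-qE1-252.1 and 11-qE1-9443.2) and 1 fall (11-qE1-3997.2). In 5-qG2 and 8-qC5, 1 of 2 loci fell (5-qG2-2301.2 and 8-qC5-8200.1) and the other was not called. Among the 14 loci that rose, 7 overlap no GENCODE M21 gene on their strand (RefSeq places transcript starts at 2 of these 7, 2-qG3-1029.1 and 7-qB5-6255.1), against 3 of the 9 that fell and 2 of the 10 not called. The rising loci had a median length of 27.4 kb and 122 small RNA CPM per kb in Exd2+/+, and the falling loci 14.4 kb and 479.6. Both are descriptions of these loci, with no test.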

How the data were processed

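Small RNA and long RNA from testis of Exd2∆ and Exd2+/+ mice were counted per piRNA locus in 2 libraries per genotype and assay. The authors deposited estimated counts per locus and library, unscaled and often fractional, with their own log2 fold change and adjusted p-value, which come from edgeR per the file headers. The submitters' processing notes name cutadapt, STAR, edgeR and the GRCm38 build. How reads were counted (tool, strand, reads with several alignments) is not given in the sources used here.

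These counts were rounded and fitted with edgeR 4.0.16 in R 4.3.3 (TMM, quasi-likelihood with the legacy option, Benjamini-Hochberg over all 208 loci). The low-count filter kept all 208 loci. Each assay was fitted alone, and the interaction was fitted over 8 libraries. The main interaction fit treated these libraries as independent, with no term for mice that may have given both assays. The procedure was also run on counts simulated from the fitted means and dispersions of the loci, and no result here rests on that run. Alternatives were other scalings and filters, DESeq2 1.42.0, the default fitting option, a replicate term, a threshold of 0.1 and leaving out each library. Each SE was derived from the test, as the absolute log2 fold change over the square root of the quasi-likelihood F statistic. Counting error is the square root of a count over the count. Members and lists were chosen with earlier results of these data known.

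Named loci were all called members where at most 12 moved in a direction, otherwise the 10 largest changes with groups that did not overlap, and the extremes of level, yield, interaction and replicate spread. Others are named to account for every member. Promoters come from RefSeq (GRCm38.p6), genes from GENCODE M21.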

Additional observations from a re-analysis of the deposited data

How the results depend on the processing

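In small RNA the number of members called stayed between 22 and 26 over the alternatives that kept every library, against 23. At the threshold of 0.05 these alternatives called 118 to 135 of the 208 loci, against 135. Leaving out 1 library lowered the number of calls among members and over all loci, so that drop was not particular to the members. Of members not called, 10-qA3-2592.1 and 13-qB1-1517.1 changed sign with library-total scaling (0.00207 and 0.00188) and, leaving out 1 library, ranged from -0.11 to 0.00643 and from -0.10 to 0.0132, as 4-qD2.2-2182.1 did from -0.30 to 0.13 and 8-qA2-343.1 from -0.0116 to 0.0187. 8-qA2-343.1 stood at -0.0221 with RLE scaling and -0.0221 with DESeq2.

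In long RNA, where none was called, DESeq2 called 1 (1 higher), a threshold of 0.1 called 1 (1 higher), and leaving out 1 library gave 0 to 15 calls among members (0 to 3 higher, 0 to 12 lower) and 0 to 105 over the 208 loci (0 to 56 higher, 0 to 49 lower). Over the 208 loci DESeq2 called 34 in long RNA (27 higher, 7 lower). The replicate block called 3 members in long RNA (1 higher, 2 lower), 22 in small RNA and 21 in the interaction, against 38, 118 and 117 of the 208 loci. In small RNA it ended the calls of 9-qA1-178.2 and 10-qC1-12816.2 (adjusted p = 0.0793 and 0.0749, edgeR) and added 2-qE5-4.1 (0.0372). Replicates share only a number: deviations of same-numbered libraries correlated at r = 0.04 in small RNA and 0.34 in long RNA.

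Long RNA values not called that changed sign were 1-qE2.3-2.1 (0.03 with the replicate block), and with library-total scaling 13-qB1-1517.1 (-0.0125), 2-qE5-4.1 (-0.00288), 6-qC3-2394.2 (-0.0584) and 6-qD1-2831.2 (-0.0163). 6-qC3-2394.2 stood at -0.000702 with RLE scaling and -0.000649 with DESeq2. Leaving out 1 library, the ranges were -0.30 to 0.29 at 1-qE2.3-2.1, -0.0233 to 0.28 at 10-qA3-2592.1, -0.0866 to 0.24 at 11-qE1-3997.2, -0.0471 to 0.17 at 2-qE5-4.1, -0.25 to 0.000493 at 4-qD2.2-2182.1, -0.18 to 0.13 at 6-qC3-100.5, -0.13 to 0.15 at 6-qC3-2394.2 and -0.00627 to 0.0996 at 6-qD1-2831.2.

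The interaction called 12 to 22 members when 1 library was left out, 8 to 15 higher and 4 to 8 lower, against 18, 13 and 5. The same fits called 80 to 129 of the 208 loci. At 4-qD2.2-2182.1 the difference was -0.0148 with RLE scaling and -0.0141 with the default option, and ranged from -0.18 to 0.25 without 1 library. The ranges at 1-qE2.3-2.1, 10-qC1-12816.2, 5-qG2-950.1 and 8-qA2-343.1 were -0.14 to 0.46, -0.00258 to 0.0938, -0.0459 to 0.0882 and -0.37 to 0.00442. The cause of these shifts was not tested. With 1 library left out, the lone library of its genotype is assumed to vary like the other genotype. Depth limited 1-qE2.3-2.1 most, and the filter of 100 counts in 2 libraries removed it from long RNA.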
